A study of Mus musculus with 6 samples.

Results

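Actin filaments and the proteins that build, cut, bundle and pull on them were followed at the RNA level in 46 genes, out of 36083 in the table. The genes were chosen by name and role, with earlier results of these data known but no threshold on their values: the actins, the Arp2/3 complex, the WASP and WAVE proteins, the formins, monomer-binding, severing and capping proteins, bundling proteins with coronins and cortactins, the ERM linkers, and a last role of myosin, tropomyosins and vimentin. They were measured in a mouse model of chronic myeloid leukemia in blast crisis (bcCML), in 3 WT and 3 Sdc1-/- libraries. KLS cells (stem and progenitor cells sorted from the B6 donors) of WT or Sdc1-/- mice carried BCR-ABL and NUP98-HOXA9 in both groups and were grown in NSG recipients. Sdc1 encodes syndecan-1, a heparan sulfate proteoglycan of the cell surface. The age given for the study's mice is a range, not one per library, and both cohorts were killed together. RNA came from spleen cells sorted as Lin-, and it is not settled whether the libraries of a group are separate mice. A legend of the study gives 3 technical replicates for RNA-seq of Lin- WT bcCML cells, without saying which libraries these were. The p-values may thus cover technical spread only.

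Actin monomers join into filaments that are branched by the Arp2/3 complex and made straight by formins. The WAVE proteins, downstream of Rac, and WASP, downstream of Cdc42, switch Arp2/3 on, while profilin, thymosins, cofilin, gelsolin and capping proteins set how many monomers are free and how long a filament lives. Leukocytes use this machinery to crawl, to cross vessel walls and to engulf particles, and ezrin, radixin and moesin tie the filaments to the membrane.

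Each value is a TPM estimate (transcripts corrected for length and scaled to a sum of 1000000) that had then been rescaled between libraries, so levels can be compared between genes. Their sum ran from 1048875 to 1058263 in the WT libraries and from 944973 to 951814 in those labelled Sdc1-/-, and read depth is unknown. Sdc1 itself was at 1.75, 1.21 and 1.51 in the WT libraries and at 3.85, 3.80 and 4.12 in those labelled Sdc1-/-, which is a log2 fold change of 0.99 (SE 0.093, limma, Benjamini-Hochberg adjusted p = 0.00012). Its mRNA was thus higher where the label says knockout, and directions below are drawn between labels. The study describes the Sdc1-/- allele as keeping the mature protein from the surface, so the mRNA level is not a check of the protein. Markers fixed for cell types differed too, and whether the leukemia cells themselves expressed them was not tested. The summed value of 9 neutrophil markers ran from 12562 to 13511 in WT and from 4561 to 4701 in those labelled Sdc1-/-, 9 of 9 lower, with Ly6g, part of the sort's lineage gate, at 8.64 to 8.88 and 1.81 to 2.23. The 8 monocyte and macrophage markers ran from 566 to 587 and from 253 to 263, with 6 of 7 tested lower. The 8 erythroid markers ran from 9510 to 10215 and from 5287 to 5690, with 6 of 8 lower. The sums of the 8 megakaryocyte markers overlapped (510 to 537 and 522 to 535), though 5 of 7 tested were lower and 2 higher. The sums of the 6 progenitor markers overlapped too (246 to 266 and 257 to 264), with 3 of 6 lower and 2 higher, and the summed T cell and B cell markers stayed at or below 2.79 in every library. Within the progenitor and megakaryocyte sums single genes moved more. The means of Meis1 and Vwf went from 13.1 and 4.14 in WT to 28.6 and 14.8 in those labelled Sdc1-/-. Ly6a went from 8.82 to 2.82 and Flt3 from 13.2 to 7.71. The endothelial genes Cdh5 and Kdr were at or near 0, and the 7 stromal markers summed to 23.5 to 24.7 in WT and 17.5 to 17.8 in those labelled Sdc1-/-. In bulk RNA, fewer cells of a type and less RNA per cell cannot be told apart. The part of these marker differences in the results on the actin genes was not tested.

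Promoter sequence was matched for 38 of the 46 genes, in 49 windows (RefSeq, GRCm38.p6). The 150 bases just upstream of the RefSeq start are shown for 3 Arp2/3 genes that fell together, for Capg and Hcls1, which also fell, and for Myh9, which rose. Each line runs 5′ to 3′ on the gene's strand, and capitals mark a match, on either strand, to the ETS core GGAAGT, the GC box GGGCGG, the box CCAAT, the box TATAAA, the AP-1 site TGANTCA or the CArG box that serum response factor binds.
Arpc2 (chr1:74236367-74236516, plus strand): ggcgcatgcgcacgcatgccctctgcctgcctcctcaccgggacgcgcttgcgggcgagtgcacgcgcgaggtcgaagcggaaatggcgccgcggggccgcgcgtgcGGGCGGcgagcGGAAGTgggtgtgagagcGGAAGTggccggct
Arpc5 (chr1:152766392-152766541, plus strand): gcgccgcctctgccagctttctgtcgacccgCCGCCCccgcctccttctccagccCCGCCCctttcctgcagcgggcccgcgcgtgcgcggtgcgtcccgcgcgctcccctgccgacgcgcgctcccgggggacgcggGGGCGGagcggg
Actr3 (chr1:125435728-125435877, minus strand): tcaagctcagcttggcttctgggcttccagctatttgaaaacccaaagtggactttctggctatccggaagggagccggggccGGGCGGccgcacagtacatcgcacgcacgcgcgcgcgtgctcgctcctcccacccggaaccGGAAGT
Capg (chr6:72549497-72549646, plus strand): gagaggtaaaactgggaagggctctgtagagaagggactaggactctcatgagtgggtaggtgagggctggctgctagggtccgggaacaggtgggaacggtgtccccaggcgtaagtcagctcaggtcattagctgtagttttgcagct
Hcls1 (chr16:36934833-36934982, plus strand): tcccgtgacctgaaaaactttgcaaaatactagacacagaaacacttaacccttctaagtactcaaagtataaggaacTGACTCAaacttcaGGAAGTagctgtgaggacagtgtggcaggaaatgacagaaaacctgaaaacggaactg
Myh9 (chr15:77842176-77842325, minus strand): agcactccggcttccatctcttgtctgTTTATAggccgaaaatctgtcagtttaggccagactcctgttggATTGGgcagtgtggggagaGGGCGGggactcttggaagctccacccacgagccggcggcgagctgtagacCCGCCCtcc

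All of these stretches lie just before an annotated start, with at most 20 of their bases in an exon of GENCODE M21, and no pair of marked motifs overlaps within them. Arpc2 holds 2 ETS cores and 1 GC box, Actr3 holds 1 of each, Arpc5 holds 3 GC boxes, Myh9 holds 2 GC boxes with 1 CCAAT and 1 TATAAA, Hcls1 holds 1 AP-1 site and 1 ETS core, and Capg holds none of the 6. Counted over the whole windows of 300 bases (250 before the start and 50 after), the ETS core stood in 26 of the 49 windows (53.1%) and in 23.8% of all 32851 windows, and the GC box in 34 (69.4%) and in 35.7%. CCAAT was found in 15 (30.6%) against 37.4%, TATAAA in 3 (6.12%) against 13.6%, and the AP-1 site in 4 (8.16%) against 7.81%. The CArG box was in 2 of the 49 windows (4.08%), those of Arpc4 and Actg1, and in 1.63% of all. The Arpc4 match starts at base -250, the outer edge of its window. Actb, Arpc5l, Coro1b, Cttn, Cyfip1, Diaph1, Nckap1 and Nckap1l had no window, so their promoters were not searched for any motif. Some genes have several windows, and a match describes the letters only.

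Across the genes the balance was towards lower values in those labelled Sdc1-/-. Of the 46 genes, 44 had a mean of at least 1 and went into the test, limma on log2(value + 1) with p-values adjusted by Benjamini-Hochberg over all 12155 genes tested. In all, 26 genes (59.1%) fell and 5 (11.4%) rose at an adjusted p below 0.05, beside 31.3% of all tested genes lower and 29.3% higher. The median log2 fold change was -0.22 for the 44 genes and -0.01 for all genes tested. Most of these genes are abundant, and abundant genes tilted the same way: of all genes with a mean of at least 50, 43.4% were lower and 24.4% higher, with a median of -0.08, against 20 (62.5%) and 4 (12.5%) of the 32 actin genes at that level, with a median of -0.23. The groups did not overlap for 34 of the 44 (77.3%), beside 66.7% of all genes tested. No gene of the 44 changed by 2-fold or more on the log2(value + 1) scale. Together the 46 genes summed to 15724 to 15861 in the WT libraries and to 13427 to 13699 in those labelled Sdc1-/-, which is 1.5% of each WT library's total and 1.42% to 1.44% of the others'.

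How many genes count as higher depends on the scale of the values. When each library was brought to a sum of 1000000, the median over all genes rose to a log2 fold change of 0.12 and the lower share of all calls went from 51.7% to 31%. On that scale 17 of the 44 actin genes were lower and 13 higher, with a median of -0.07. Of all 12155 genes tested, 2380 were then lower and 5286 higher. With the median of all genes then set to 0, a scale added after the data had been seen, 26 actin genes were lower and 7 higher. Beside them, 3629 of all genes tested were lower and 3711 higher. The counts by role below are on the deposited scale, and the plot of the 4 scalings shows every gene on each.

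**Figure D1:**
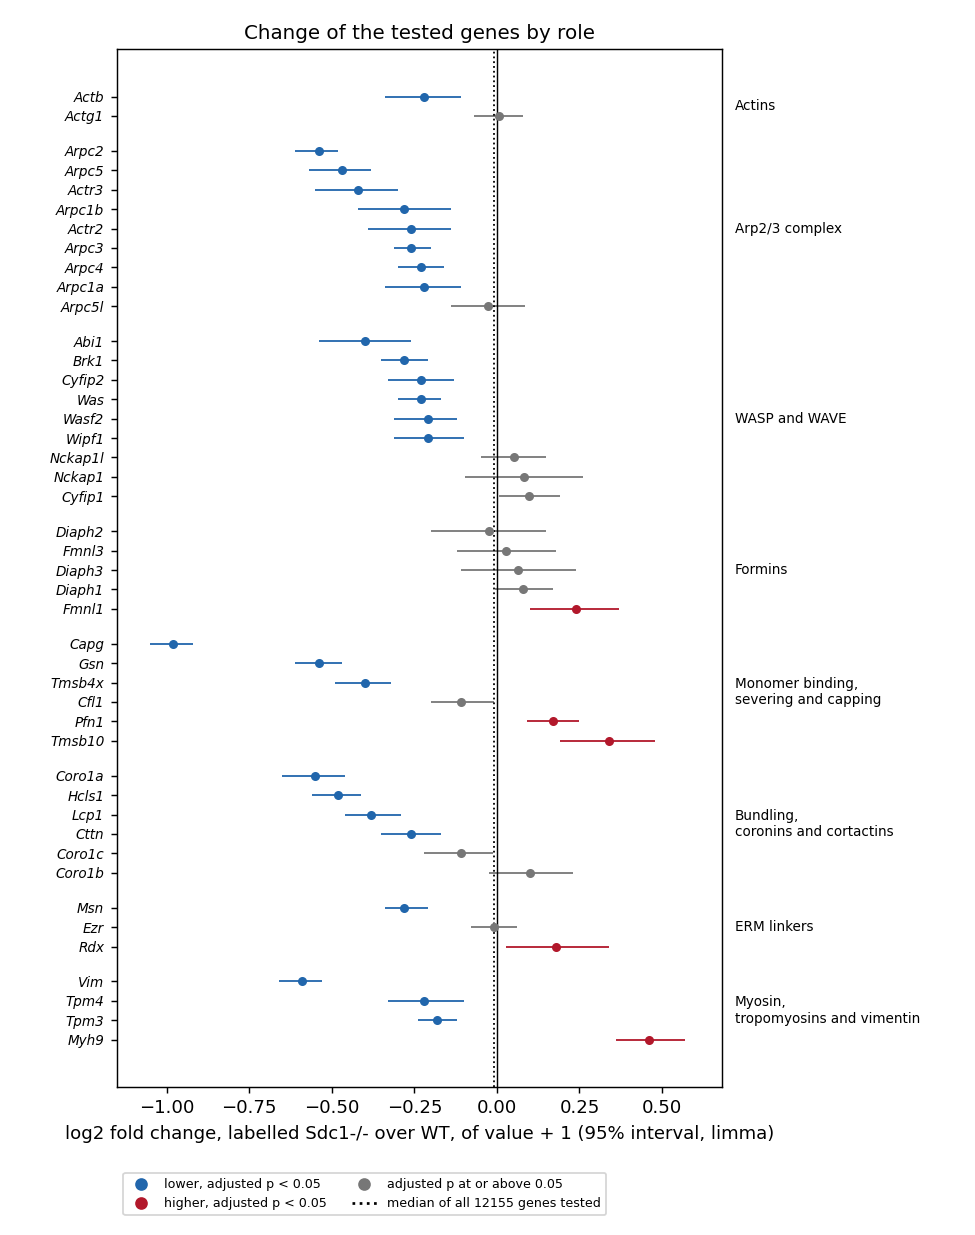
log2 fold change (libraries labelled Sdc1-/- over WT, of value + 1) of the 44 tested genes by role, with the 95% interval from limma, n = 3 libraries a group. Blue points passed the test as lower (26), red as higher (5) and grey did not pass; the dotted line is the median of all genes tested. Capg stands farthest to the left at -0.98 and Myh9 farthest to the right at 0.46.

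**Figure D2:**
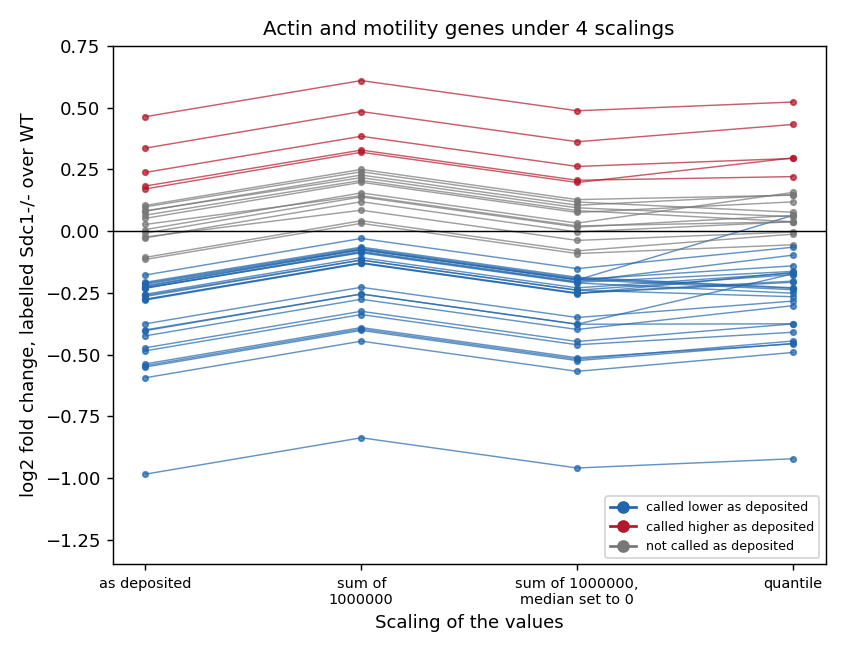
log2 fold change of each tested gene under 4 scalings of the values, coloured by its call on the deposited scale. A sum of 1000000 lifts the lines by about the same amount, while quantile normalization moves genes by unequal amounts, Actb from -0.22 to 0.06 and Cfl1 from -0.11 to -0.01; the genes that fell most stay below 0 on all 4.

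The cytoplasmic actins parted. Actb, the beta-actin gene, was at 2227, 1990 and 2096 in the WT libraries and at 1877, 1783 and 1741 in those labelled Sdc1-/-. Every library labelled Sdc1-/- lay below the lowest WT library. Actb fell by 0.22 on the log2 scale (SE 0.050, limma, Benjamini-Hochberg adjusted p = 0.0069), but the call was lost with a sum of 1000000 (-0.08, adjusted p = 0.199) and the sign turned with quantile normalization (0.06, adjusted p = 0.407). Actg1, the gamma-actin gene, was at 1249, 1188 and 1254 in WT and at 1234, 1240 and 1233 in the other group, which lies within the WT range. Its log2 fold change was 0.01, with a 95% interval of -0.07 to 0.08, while with a sum of 1000000 it was 0.15 (adjusted p = 0.00336). The ratio of Actb to Actg1, which multiplying a library by one factor cannot change, was 1.78, 1.67 and 1.67 in WT and 1.52, 1.44 and 1.41 in those labelled Sdc1-/-. The ratio was thus lower in each library labelled Sdc1-/- than in any WT library. Quantile normalization, which is no such factor, brought the log2 fold changes of the pair closer together, to 0.06 for Actb and 0.16 for Actg1. Of the 31-base words of Actb transcripts 23.6%, and of those of Actg1 39.0%, also occur in other genes of the table, and 106 words are common to both actins. How far reads were exchanged between them was not tested.

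The Arp2/3 complex, which starts branches on existing filaments, was lower in nearly all of its genes. Of the 9, 8 passed the test as lower and none as higher; the same 8-to-0 count was found with quantile normalization, and 5 to 0 with a sum of 1000000. Arpc2, which with Arpc4 forms the core of the complex, was at 461, 474 and 469 in WT and at 315, 319 and 328 in those labelled Sdc1-/-. The spread within each group was small beside the gap between them. The log2 fold change of Arpc2 was -0.54 (SE 0.029, limma, Benjamini-Hochberg adjusted p = 9.2e-06). Arpc5 was at 269, 277 and 278 against 188, 200 and 205 (-0.47, SE 0.040, adjusted p = 7.0e-05). Actr3, the Arp3 subunit that with Arp2 mimics the end of a filament, was at 416, 452 and 417 against 300, 332 and 326 (-0.42, SE 0.051, adjusted p = 0.00039). The groups were apart for both. The 5 other genes that fell, Arpc1a, Arpc1b, Arpc3, Arpc4 and Actr2, lay close together, with log2 fold changes from -0.28 for Arpc1b to -0.22 for Arpc1a. Actr2, which encodes Arp2, therefore moved less than Actr3, and the ratio of Actr2 to Actr3 was 0.324 to 0.343 in WT and 0.363 to 0.376 in the other group. For Arpc1a to Arpc1b the ratios overlapped, at 0.128 to 0.147 in WT and 0.138 to 0.158 in those labelled Sdc1-/-. Of the Arpc1b words 30.5% and of the Actr3 words 34.2% are shared with other genes. For Actr3 these are a pair of copies with means of at most 3.17, and for Arpc1b the neighbouring Pdap1 shares the most, so the Arpc1b value is the less certain.

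Arpc5l, the alternative form of the Arpc5 subunit, did not follow. It was at 71.3, 77.4 and 70.8 in WT and at 69.5, 70.6 and 75.1 in those labelled Sdc1-/-, and the groups overlapped. Its log2 fold change of -0.03 (95% interval -0.14 to 0.09) turned positive with a sum of 1000000 (0.12) and with quantile normalization (0.04), without passing the test on either. The ratio of Arpc5l to Arpc5 was 0.265, 0.279 and 0.254 in WT and 0.370, 0.353 and 0.366 in those labelled Sdc1-/-, so that the lowest of the latter exceeded the highest WT value.

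**Figure D3:**
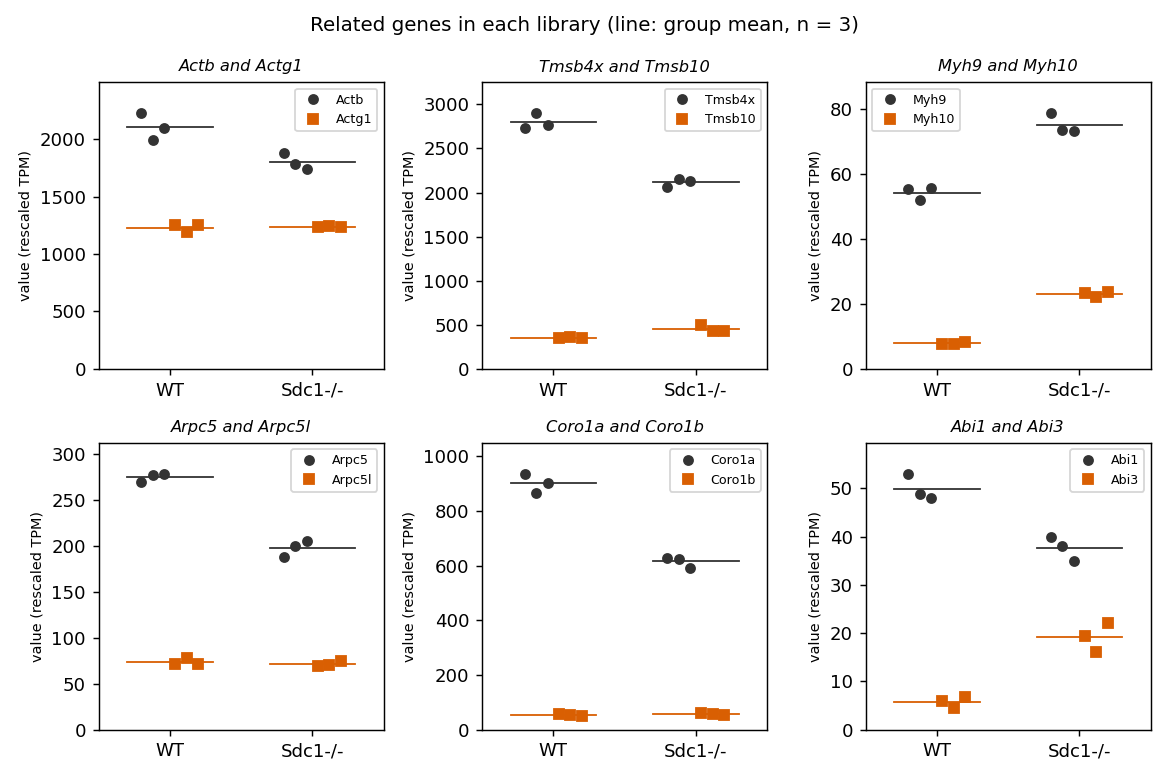
Values (rescaled TPM) of 6 pairs of related genes in each library, with a line at the mean of each group of 3; every axis starts at 0. Tmsb4x, Arpc5, Coro1a and Abi1 fell while Tmsb10, Myh10 and Abi3 rose, and Actg1, Arpc5l and Coro1b did not pass the test.

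Among the WASP and WAVE genes, 6 of the 9 tested were lower and none higher. With a sum of 1000000 the count was 3 lower and 3 higher, beside 2380 lower and 5286 higher of all 12155 genes tested. Quantile normalization gave 6 lower and 1 higher, as did setting the median of all genes to 0, so the counts of this role depend on the scale. Abi1, the adaptor of the WAVE complex, was at 53.0, 48.9 and 47.9 in WT and at 39.9, 38.0 and 35.0 in those labelled Sdc1-/-. It was lower in all 3, and its log2 fold change was -0.40 (SE 0.060, limma, Benjamini-Hochberg adjusted p = 0.0010). The small subunit Brk1 fell by 0.28 on that scale, Was, the hematopoietic WASP, and Cyfip2 each fell by 0.23, and Wasf2, the WAVE2 gene, and Wipf1, the WASP partner, each fell by 0.21. Those 5 lie between 132 (Brk1) and 17.7 (Cyfip2) in mean value in those labelled Sdc1-/-.

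Nckap1l, Nckap1 and Cyfip1, which encode large scaffold subunits of the WAVE complex, did not pass the test on the deposited scale, unlike Cyfip2. Nckap1l, the hematopoietic form of the scaffold NAP1, was at 61.6, 60.2 and 60.7 in WT and at 65.3, 64.6 and 59.5 in those labelled Sdc1-/- (log2 fold change 0.05, 95% interval -0.05 to 0.15). Nckap1 was at 0.08 and overlapped as well. So did the ratio of Nckap1 to Nckap1l, at 0.141 to 0.161 in WT and 0.134 to 0.176 in the other group. Cyfip1 came nearest, at 0.10 with an adjusted p of 0.0594 and with no overlap, and it passed as higher with a sum of 1000000 (0.24, adjusted p = 0.00139). On that scale Nckap1l (0.20, limma adjusted p = 0.0038) and Nckap1 (0.22, adjusted p = 0.0421) passed as higher too. Nckap1l also passed as higher with quantile normalization (0.12, adjusted p = 0.0381). The closely related Cyfip1 and Cyfip2 thus lay on opposite sides of 0, and the ratio of Cyfip2 to Cyfip1 was 0.950 to 1.00 in WT and 0.741 to 0.809 in the other group. Wasf1, the WAVE1 gene best known from the nervous system, was too low to test: it was at 0, 0.00943 and 0.0226 in WT and at 0.126, 0.130 and 0.125 in those labelled Sdc1-/-.

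Formins, which elongate straight filaments, held no gene that passed as lower among the 5 tested. Fmnl1, the leukocyte formin, was at 60.5, 58.4 and 61.6 in WT and at 77.7, 68.1 and 68 in those labelled Sdc1-/-. All 3 of the latter were above WT, the first by more than the others. Fmnl1 rose by 0.24 in log2 units (SE 0.057, limma, Benjamini-Hochberg adjusted p = 0.0094). The diaphanous formins Diaph1, Diaph2 and Diaph3 and the formin Fmnl3 had log2 fold changes of -0.02 to 0.08 and overlapped between groups; with a sum of 1000000 Diaph1 and Diaph3 passed as higher. Diaph2 and Fmnl3 were low, at means of 2.68 and 3.58. Fmnl2, with a mean below 1, was not tested; it was at 0.734, 0.786 and 0.698 in WT and at 0.387, 0.468 and 0.425 in the other group.

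The proteins that hold monomers and cut or cap filaments moved both ways, 3 lower and 2 higher of 6, and these counts were the same on all 4 scalings. Capg, which caps the growing ends of filaments and is abundant in macrophages, showed the greatest change of the 44 genes. Capg was at 171, 173 and 172 in WT and at 88.4, 86.0 and 85.2 in those labelled Sdc1-/-. The libraries of a group differed by a few units while the group means differed by a factor of 0.503. Its log2 fold change was -0.98 (SE 0.028, limma, Benjamini-Hochberg adjusted p = 9.7e-07), and it was at or below -0.84 under the 15 alternative settings. Gsn, gelsolin, which severs filaments in response to calcium and is related to Capg, was at 137, 133 and 135 against 94.7, 92.4 and 90.9 (-0.54, SE 0.030, adjusted p = 1.1e-05). It too was lower in all 3 libraries labelled Sdc1-/-.

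The thymosins, which sequester actin monomers, went in opposite directions. Tmsb4x, the most abundant of the 46 genes, was at 2731, 2901 and 2767 in WT and at 2062, 2152 and 2134 in those labelled Sdc1-/-, a log2 fold change of -0.40 (SE 0.036, limma, Benjamini-Hochberg adjusted p = 9.1e-05). Tmsb10, named after its values were seen, was at 349, 364 and 352 in WT and at 495, 426 and 428 in those labelled Sdc1-/-. It rose by 0.34 (SE 0.060, adjusted p = 0.0025), most in the first of the 3. The ratio of Tmsb10 to Tmsb4x, which such a factor leaves as it is, was 0.126 to 0.128 in WT and 0.198 to 0.240 in the other group. No 31-base word of Tmsb4x occurs in another gene of the table, whereas 31% of those of Tmsb10 do, mostly in a copy at a mean of 0.210.

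Profilin and cofilin, the other abundant regulators of monomers, also differed from each other. Pfn1, which feeds monomers to formins and was likewise named after its values were seen, was at 1340, 1263 and 1325 in WT and at 1487, 1487 and 1446 in those labelled Sdc1-/-. It was higher in all 3, with a log2 fold change of 0.17 (SE 0.034, limma, Benjamini-Hochberg adjusted p = 0.0039). Cfl1, cofilin, which strips monomers from old filaments, was at 1281, 1409 and 1326 against 1249, 1260 and 1218. Cfl1 did not pass the test (-0.11, adjusted p = 0.0578), and its sign turned with a sum of 1000000 (0.04); without WT replicate 1 it passed as lower (-0.14, adjusted p = 0.0305). In WT the levels of Pfn1 and Cfl1 overlapped. In the libraries labelled Sdc1-/- each Pfn1 value exceeded each Cfl1 value, and the ratio of Pfn1 to Cfl1 went from 0.896 to 1.05 in WT to between 1.18 and 1.19.

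**Figure D4:**
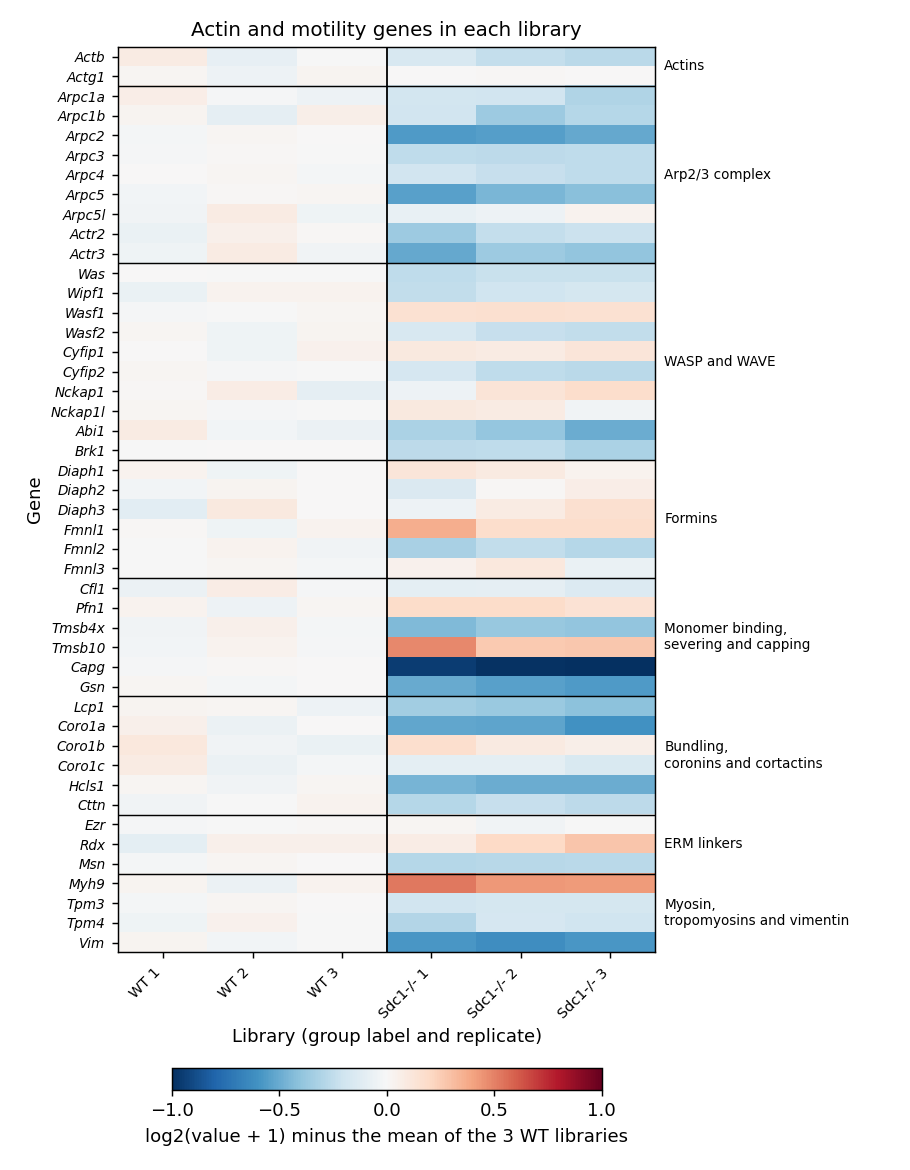
Difference of log2(value + 1) from the mean of the 3 WT libraries for all 46 genes, by role, in each library; blue is lower and red is higher. The 3 libraries labelled Sdc1-/- resemble each other, with Capg, Vim, Coro1a, Arpc2 and Gsn the bluest rows and Myh9 and Tmsb10 the reddest.

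Of the bundling proteins, coronins and cortactins, 4 of 6 were lower and none higher. Coro1a, the coronin of blood cells, which binds both filaments and Arp2/3, was at 936, 866 and 903 in WT and at 628, 626 and 592 in those labelled Sdc1-/-. The groups lay far apart relative to their spread, with a log2 fold change of -0.55 (SE 0.040, limma, Benjamini-Hochberg adjusted p = 3.7e-05). Hcls1, the cortactin of blood cells that steadies Arp2/3 branches, was at 103, 98.9 and 103 against 73.3, 71.9 and 71.9 (-0.48, SE 0.031, adjusted p = 1.9e-05). Lcp1, L-plastin, the filament bundler of leukocytes, was at 274, 272 and 259 against 211, 207 and 202 (-0.38, SE 0.035, adjusted p = 0.00011). None of these 3 overlapped between groups, and each was lower in every setting tried. Cttn, the cortactin of most other tissues, was lower by a smaller amount (-0.26, adjusted p = 0.00075).

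The broadly expressed coronins did not pass. Coro1b had a log2 fold change of 0.10 (95% interval -0.03 to 0.23) and overlapped between groups, and Coro1c had -0.11 (adjusted p = 0.0571), which turned to 0.03 with a sum of 1000000. Without WT replicate 1 Coro1b passed as higher (0.16, adjusted p = 0.0292), and without WT replicate 2 Coro1c passed as lower (-0.15, adjusted p = 0.0304). The ratio of Coro1b to Coro1a was 0.0564 to 0.0613 in WT and 0.0907 to 0.0956 in those labelled Sdc1-/-. Coro1b also passed as higher with a sum of 1000000, so that 4 genes of this role were then lower and 1 higher. Quantile normalization gave 4 lower and 1 higher as well.

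The ERM linkers split as well, with 1 lower, 1 higher and 1 not passing. Msn, moesin, the dominant linker of leukocytes, was at 189, 194 and 192 in WT and at 157, 158 and 159 in those labelled Sdc1-/-. Its groups were apart and its log2 fold change was -0.28 (SE 0.026, limma, Benjamini-Hochberg adjusted p = 0.00013). Ezr, ezrin, was at -0.01 with a 95% interval of -0.08 to 0.06, and it passed as higher with a sum of 1000000 (0.14, adjusted p = 0.00508). Rdx, radixin, was higher by 0.18, but at an adjusted p of 0.0456 the call held in 8 of the 15 alternative settings. It was lost on leaving out any single library other than the first of those labelled Sdc1-/-, with adjusted p-values from 0.0541 (without WT replicate 2) to 0.131 (without Sdc1-/- replicate 3).

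In the last role, 3 genes were lower and 1 higher. Vim, vimentin, an intermediate filament protein of mesenchymal and blood cells, was at 440, 424 and 430 in WT and at 288, 280 and 288 in those labelled Sdc1-/-. The groups did not overlap, and the log2 fold change of -0.59 (SE 0.029, limma, Benjamini-Hochberg adjusted p = 6.7e-06) was the next largest after that of Capg. Tpm4 and Tpm3, tropomyosins that coat filaments, fell by 0.22 and 0.18, and both calls were lost with a sum of 1000000. The call held in 14 of the 15 alternative settings for Tpm4 and in 13 for Tpm3. With quantile normalization the role counted 2 lower and 1 higher. Myh9, the heavy chain of nonmuscle myosin IIA, the main contractile motor of leukocytes, was at 55.3, 51.9 and 55.5 in WT and at 78.7, 73.4 and 73.3 in those labelled Sdc1-/-. It rose by 0.46 (SE 0.044, adjusted p = 0.00012), the largest rise of the 44 genes, and kept its call in all 15 alternative settings.

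By level, the order was led by Tmsb4x, Actb, Pfn1, Cfl1 and Actg1, each with a mean above 1000 and ranking 88, 104, 125, 130 and 133 among all genes. Tmsb4x and Actb were apart in every library. Pfn1 and Cfl1 did not differ beyond their spread in WT, where Pfn1 ran from 1263 to 1340 and Cfl1 from 1281 to 1409, while Actg1, from 1188 to 1254, lay just below both. Coro1a, ranking 183, followed. In all, 21 of the 46 genes had a mean of at least 100. The most abundant genes include falls (Tmsb4x, Actb, Coro1a) as well as a rise (Pfn1).

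The other genes of the pathway were read from 5 lists of proteins that signal to actin or act with the 46. Of 83 matched genes, 76 were tested, and 36 were lower and 20 higher, beside 31.3% and 29.3% of all genes tested. With a sum of 1000000 the counts were 19 lower and 29 higher, beside 2380 lower and 5286 higher of all 12155 genes tested. Of the lists, 3 are described here.

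Of the other assembly and turnover factors, 12 of 21 were lower and 6 higher, but 6 lower and 9 higher with a sum of 1000000. The largest change was in Abi3, a relative of Abi1, at 5.96, 4.52 and 6.67 in WT and at 19.4, 16 and 22.1 in those labelled Sdc1-/- (1.59, SE 0.15, limma, Benjamini-Hochberg adjusted p = 0.00012). The ratio of Abi3 to Abi1 was 0.0923 to 0.139 in WT and 0.421 to 0.633 in the other group, with Abi1 the higher of the pair in every library. Dstn, a relative of cofilin, had -0.73 and Capza2, a capping protein subunit, had -0.70. The ratio of Dstn to Cfl1 was 0.234 to 0.248 in WT and 0.144 to 0.169 in those labelled Sdc1-/-.

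Of the other myosins and crosslinkers, 11 of 20 were lower and 8 higher, against 7 and 9 with a sum of 1000000 and 9 and 9 with quantile normalization. Myh10, nonmuscle myosin IIB, was at 7.65, 7.68 and 8.38 in WT and at 23.2, 22.0 and 23.6 in those labelled Sdc1-/-. This rise of 1.43 (SE 0.051, limma, Benjamini-Hochberg adjusted p = 2.3e-06) was larger than that of Myh9, and the ratio of Myh10 to Myh9 was 0.138 to 0.151 in WT and 0.295 to 0.321 in the other group. Myo1f, a class I myosin of leukocytes, had -0.78, and Plek, pleckstrin, had -0.65. Serum response factor, which with its MRTF cofactors drives many actin genes, was at 29.5, 31.3 and 32.2 in WT and at 32.9, 30.9 and 32.1 in the other group, with a log2 fold change of 0.05 (95% interval -0.06 to 0.15). Of these 3 genes only Mrtfb, named after its values were seen and low at a mean of 2.28, passed, at 0.17 with an adjusted p of 0.0498. None of the 3 passed with the median of all genes set to 0, and 2 were higher with a sum of 1000000.

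**Figure D5:**
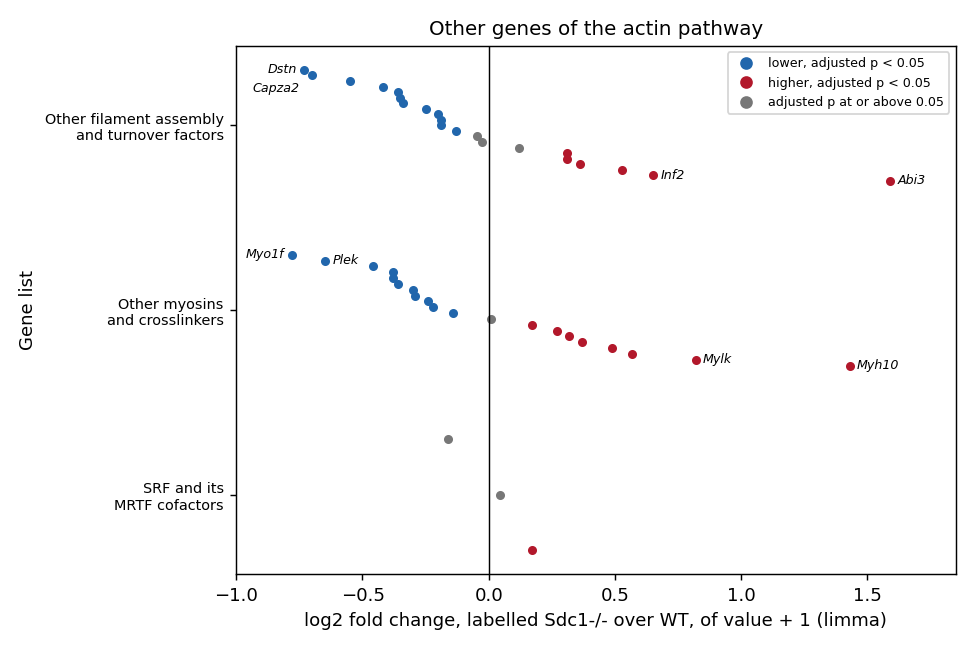
log2 fold change (libraries labelled Sdc1-/- over WT, of value + 1) of the tested genes in 3 lists of other genes of the pathway; each point is a gene, height within a list carries no value, and genes beyond 0.6 in either direction are named. Abi3 (1.59) and Myh10 (1.43) lie farthest to the right.

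A last measurement bears on every comparison above between the labels, for all 46 genes. The Y-linked genes Ddx3y, Eif2s3y, Kdm5d and Uty summed to 0.276 to 0.308 in the WT libraries and to 68.1 to 78.4 in those labelled Sdc1-/-. A difference in Y-linked RNA thus goes with the labels. Xist, also listed for sex, had no match among the genes measured, so the sex of the cells was read from Y-linked genes alone. The part of a sex difference cannot be told apart from that of the genotype. Was, Diaph2, Tmsb4x and Msn lie on the X chromosome. Of these, Was, Tmsb4x and Msn were lower and Diaph2 did not pass.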

How the data were processed

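RNA-seq was made by the study from 150 ng of RNA per library (TruSeq Stranded mRNA, single reads of 75 bases, NextSeq 500) in 6 libraries, grouped by their labels. The submitters' processing notes name kallisto, sleuth 0.30.0 and mm10; the kallisto version and the transcriptome are not given in the sources used here. The authors deposited a signal per gene and library, TPM rescaled between libraries, so depth is unknown, no counting interval can be given, and a count test could not be run. The authors also deposited their own comparison, with a p-value and q-value, an effect size and variances per gene, which was not used.

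Values were tested as log2(value + 1) with limma 3.58.1 (R 4.3.3; eBayes with variance trend, group as the only term) for the 12155 genes whose mean reached 1, with Benjamini-Hochberg adjustment, and calls were made below 0.05. A test planned for TPM was kept for the rescaled values. The fit was tested on simulated data. Fold changes are on the log2(value + 1) scale and understate those of low genes. Gene names and exons came from GENCODE M21, which names 35454 of the 36083 genes, and promoters from RefSeq. Words of 31 bases were compared between transcripts to find genes that share reads.

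The 46 genes and all lists were chosen with earlier results of these data known. Every one of the 46 is named or counted. Values per library are given for both actins, the 12 genes with the largest absolute change and the leading gene of each role. Outside that rule they are also given for Arpc5l, Nckap1l, Cfl1, Wasf1, Fmnl2, Pfn1 and Tmsb10. The ratios of gene pairs were not among the planned results. From each other list described the 3 largest called changes with a mean of at least 5 are named. The settings varied, 14 and 1 added later, cover the pseudocount, minimum mean, scaling, variance trend, replicate number and each library left out. Of the other pathway genes, 83 of 84 matched 1 gene. Results of 2 of the 5 other lists are not reported here.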

Additional observations from a re-analysis of the deposited data

How the results depend on the processing

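Across 14 other settings and 1 that was added once the data had been seen (a sum of 1000000, then the median of all genes at 0), 17 of the 26 genes that fell and 4 of the 5 that rose kept their call throughout. The scale mattered most. When each library was brought to a sum of 1000000, the lower genes in the whole table numbered 2380 instead of 3810, and the higher ones 5286 instead of 3564. The actin genes then numbered 17 lower and 13 higher. In the other pathway lists 19 genes were lower instead of 36, and 29 higher instead of 20. Quantile normalization gave 9 higher actin genes, and a minimum mean of 5 gave 12 higher genes in the other lists, where fewer genes were tested. Signs turned for genes near 0 or, for Actb, with quantile normalization (0.0639). With a sum of 1000000 the log2 fold change became 0.1189 for Arpc5l, 0.0845 for Diaph2, 0.042 for Cfl1, 0.0313 for Coro1c and 0.1385 for Ezr. Quantile normalization gave 0.038 for Arpc5l and 0.0633 for Ezr, and the added setting 0.0162 for Ezr. With 1 library left out at a time, Actg1 ranged from -0.0186 (without WT replicate 2) to 0.0199, Arpc5l from -0.0605 to 0.0128 (without WT replicate 2), Diaph2 from -0.0677 to 0.0375 (without Sdc1-/- replicate 1), Fmnl3 from -0.01 (without Sdc1-/- replicate 2) to 0.0725, and Ezr from -0.0225 to 0.006 (without Sdc1-/- replicate 2). Apart from the scale and the number of genes tested, the cause was not tested. Deviations of same-numbered libraries correlated at 0.151, -0.00828 and 0.0185, beside -0.157 to 0.142 for unlike-numbered ones. These correlations do not settle whether the numbers pair the samples. With the replicate block, 28 actin genes were lower and 6 higher. The block took the SE of Arpc1b from 0.0577 to 0.0333 but that of Arpc5l only from 0.0478 to 0.0472. Without depth, counting error cannot be separated from the spread between libraries.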
